A study of Mus musculus with 6 samples.

Results

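The genes described here are 32 genes of the endoplasmic reticulum (ER) chaperone system and the unfolded protein response, taken by symbol from a table of 39179 mouse genes. All 32 were found. They are grouped by known function, and the rule itself holds no measured value. Proteins bound for the cell surface or for secretion enter the ER through the SEC61 channel, fold there with the help of chaperones and disulfide isomerases, and are sent back to the cytosol for degradation when they fail to fold. When unfolded protein builds up, the sensors IRE1 (gene Ern1), ATF6 and PERK (gene Eif2ak3) switch on genes for chaperones and degradation factors and slow translation, and IRE1 splices the mRNA of the transcription factor XBP1. Sinusoidal endothelial cells of the liver carry many scavenger receptors and secrete signals such as BMP ligands, all of which pass through the ER.

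RNA was sequenced from endothelial cells that had been sorted from the liver of male mice of the strain 129S6/SvEvTac, all wild type. The mice were put on purified diet at 3 weeks of age and killed at 7 weeks, after 4 weeks of feeding. Iron was 37 ppm (ferric citrate) in the control-iron diet and 10000 ppm (carbonyl iron) in the high-iron diet, so the groups also differed in the form of iron. Each group had 3 biological replicates, with no batch or date in the labels, which do not say whether a replicate was 1 mouse or several. The sort kept cells with CD31 and CD146 on their surface and dropped those with CD64, MHC class II, CD45 or a lineage marker. Libraries held 12963510 to 21663543 reads in genes. Levels are in CPM, reads of a gene scaled by the size of its library. Endothelial markers summed to between 25809 and 28062 CPM in control-iron and between 24983 and 25705 CPM in high-iron libraries, and all 14 of them were tested. Mcam, the gene of the sort marker CD146, was itself low, at 18.4 ± 8.46 and 8.85 ± 2.26 CPM (SD, n = 3). Pecam1, the gene of the sort marker CD31, was at 686 ± 51.5 and 606 ± 49.5 CPM. Lyve1 went the other way, at 220 ± 43.5 and 339 ± 21.1 CPM. Of the 14 markers, 4 were higher and 10 lower on high iron. Markers of cells outside the gate were present: 16 Kupffer cell and macrophage genes summed to 79.3 to 186 CPM in control-iron and 271 to 540 CPM in high-iron libraries, and none of them was at 0 throughout.

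Some of these genes carry a known regulatory sequence in their promoters. The ER stress response element, ERSE, is the site through which ATF6 and XBP1, together with the factor NF-Y, act on chaperone genes, and it reads CCAAT, then 9 bases of any kind, then CCACG. Promoters of 300 bases (250 before to 50 after the start site, RefSeq, GRCm38.p6, the C57BL/6J reference rather than the strain used here) were at hand for 27 of the 32 genes, and not for Atf6, Derl1, Hyou1, Manf and Sec61a1. On either strand, an exact ERSE was found for 9 of the 27: Calr, Canx, Creld2, Derl3, Dnajc3, Hsp90b1, Hspa5, Pdia6 and Syvn1. Over all 32817 promoters the share with an exact match was 0.119%. Hsp90b1 held 2 matches. The related element ERSE-II (ATTGG, 1 base of any kind, CCACG) was found for Herpud1 and Dnajb11, against 0.0366% of all promoters. Searches for TGACGTGG, the core of the unfolded protein response element, matched Txndc5 alone (0.676% of all promoters). Searches for TGATGCAA, an ATF4-type site, matched Herpud1 alone (0.896%). None of these matches overlapped another. The sites below, read from the strand on which the motif runs in its written direction, are shown because such sites occur both in members that varied widely between libraries (Hspa5, Creld2, Pdia6) and in steady ones (Canx, Calr), with Syvn1, Dnajc3 and Herpud1 between them. Capitals mark the motif, whose coordinates and strand are given.
Hspa5, chr2:34772025-34772043 (plus strand): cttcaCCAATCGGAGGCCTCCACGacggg
Creld2, chr15:88819520-88819538 (minus strand): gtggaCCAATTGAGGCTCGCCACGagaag
Pdia6, chr12:17266491-17266509 (plus strand): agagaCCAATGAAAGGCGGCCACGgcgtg
Syvn1, chr19:6046532-6046550 (plus strand): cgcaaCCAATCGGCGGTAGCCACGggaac
Dnajc3, chr14:118937827-118937845 (plus strand): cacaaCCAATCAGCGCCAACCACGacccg
Calr, chr8:84847075-84847093 (plus strand): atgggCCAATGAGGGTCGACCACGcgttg
Canx, chr11:50325800-50325818 (minus strand): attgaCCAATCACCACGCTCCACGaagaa
Herpud1, chr8:94386377-94386387 (plus strand, ERSE-II): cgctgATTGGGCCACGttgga
These are matches of letters in the reference, and binding was not measured.

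The comparison asked whether the ER folding and stress genes differ in liver endothelial cells after iron loading. No member passed the threshold. Of the 31 members tested, 0 had an adjusted p under 0.05 by limma, where 1.02% of the 12980 genes tested did (133 genes, with 0.832% higher and 0.193% lower on high iron). The 31 are those with at least 1 CPM in at least 3 libraries. At an unadjusted p under 0.05 there were 2 members, against 12.1% of all genes. EdgeR called 0 members (0.863% of all genes) and DESeq2 called 1, Calr (3.27% of all genes). Log2 fold changes, high iron over control iron, were positive for 16 members and negative for 15, and ran from -0.59 to 0.57. Their median was 0.04, and the median over all genes tested was -0.003. Fold changes are on the log2(CPM + 1) scale. For 28 of the 31 the 95% interval of the difference lay inside a 2-fold change either way, and the exceptions were Hspa5, Creld2 and Edem1. The 2 groups of libraries did not overlap for 3 members, Calr, Edem1 and Derl1, against 17.9% of all genes.

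**Figure D1:**
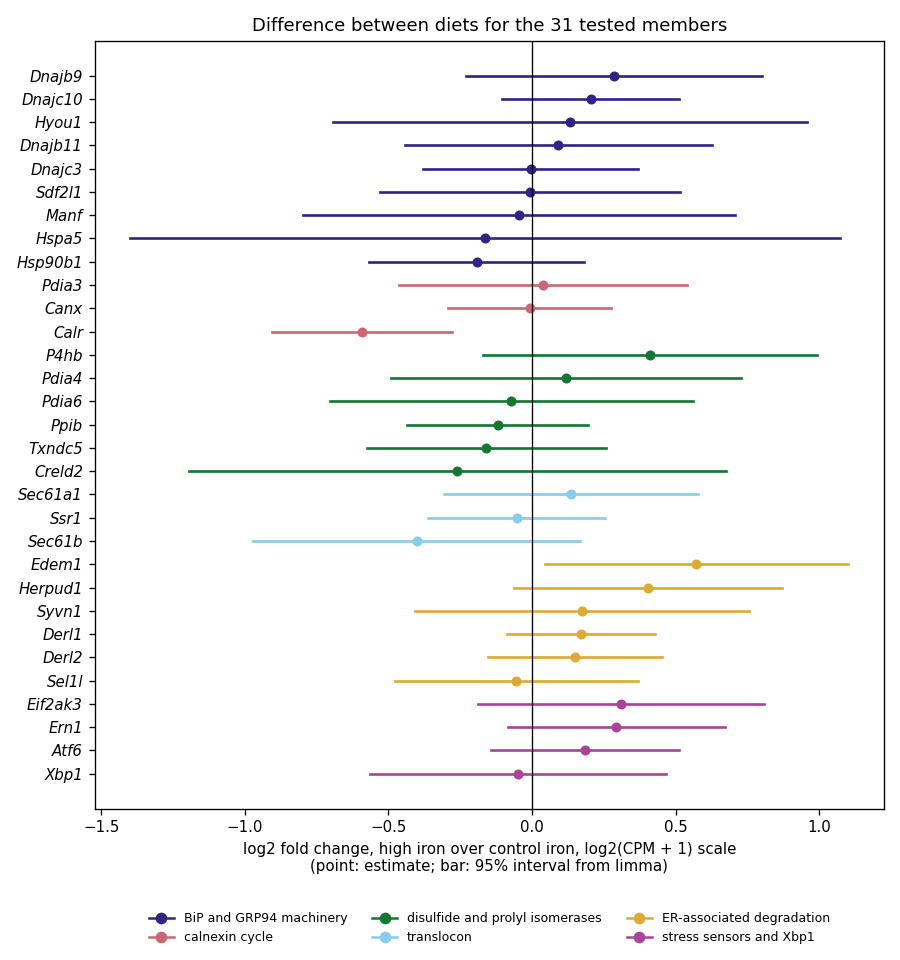
Log2 fold change (x axis, log2(CPM + 1) scale) of the 31 tested members (y axis), grouped and coloured by role. Points are limma estimates and bars 95% intervals. Calr, at -0.59, and Edem1, at 0.57, are the members whose bars do not cross 0, and the bar of Hspa5 is the widest, from -1.40 to 1.07.

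Hspa5 encodes BiP, the Hsp70 chaperone of the ER and the gene most often read as a gauge of ER stress. It stood at 2281, 1316 and 678 CPM in control-iron replicates 1 to 3, and at 1006, 2632 and 547 CPM in high-iron replicates 1 to 3. The highest and the lowest of the 6 values were both in the high-iron group, and the groups overlapped over most of their range. Group means were 1425 ± 807 and 1395 ± 1096 CPM (SD, n = 3), with a log2 fold change of -0.16 ± 0.55 (SE; adjusted p = 0.92 by limma). Between 7110 and 44647 reads lie behind each of these values, so counting error is small beside the differences. Within a diet the highest library exceeded the lowest 3.37-fold (control iron) and 4.82-fold (high iron). In bulk samples of sorted cells, fewer cells of a type and less RNA per cell cannot be told apart.

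Among the partners of BiP, Hyou1 and Manf also peaked in high-iron replicate 2. Hyou1, a large Hsp70-like protein that exchanges the nucleotide of BiP, was at 182, 108 and 72.8 CPM on control iron and at 89.6, 213 and 99.5 CPM on high iron. Its highest values were in the same libraries as those of Hspa5, control-iron replicate 1 and high-iron replicate 2. Manf, a secreted factor that binds BiP, was at 196, 180 and 174 CPM on control iron, an even level, and at 153, 340 and 108 CPM on high iron. On high iron its replicate 2 lay above, and its replicates 1 and 3 below, every control-iron library, and replicate 2 was 3.16-fold above replicate 3. The J-domain co-chaperones, which bring clients to BiP, ranged less widely. Dnajb9 had group means of 45.9 ± 8.18 and 57.3 ± 18.8 CPM (SD, n = 3), and Dnajb11 of 176 ± 47.9 and 187 ± 52.0 CPM. Dnajc3, which also restrains PERK, had 319 ± 45.7 and 319 ± 58.4 CPM. Dnajc10, a J-domain reductase of disulfides, was at 192, 167 and 152 CPM on control iron and at 176, 205 and 207 CPM on high iron, with a log2 fold change of 0.20 (limma adjusted p = 0.58). Sdf2l1, a co-chaperone of the DNAJB11 complex, was at 130 ± 12.1 and 135 ± 51.0 CPM. Hsp90b1, the ER form of Hsp90 known as GRP94, was at 736 ± 57.2 and 651 ± 131 CPM. Over these 9 genes the log2 fold changes ran from -0.19 to 0.28 and adjusted p-values from 0.58 to 0.99.

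**Figure D2:**
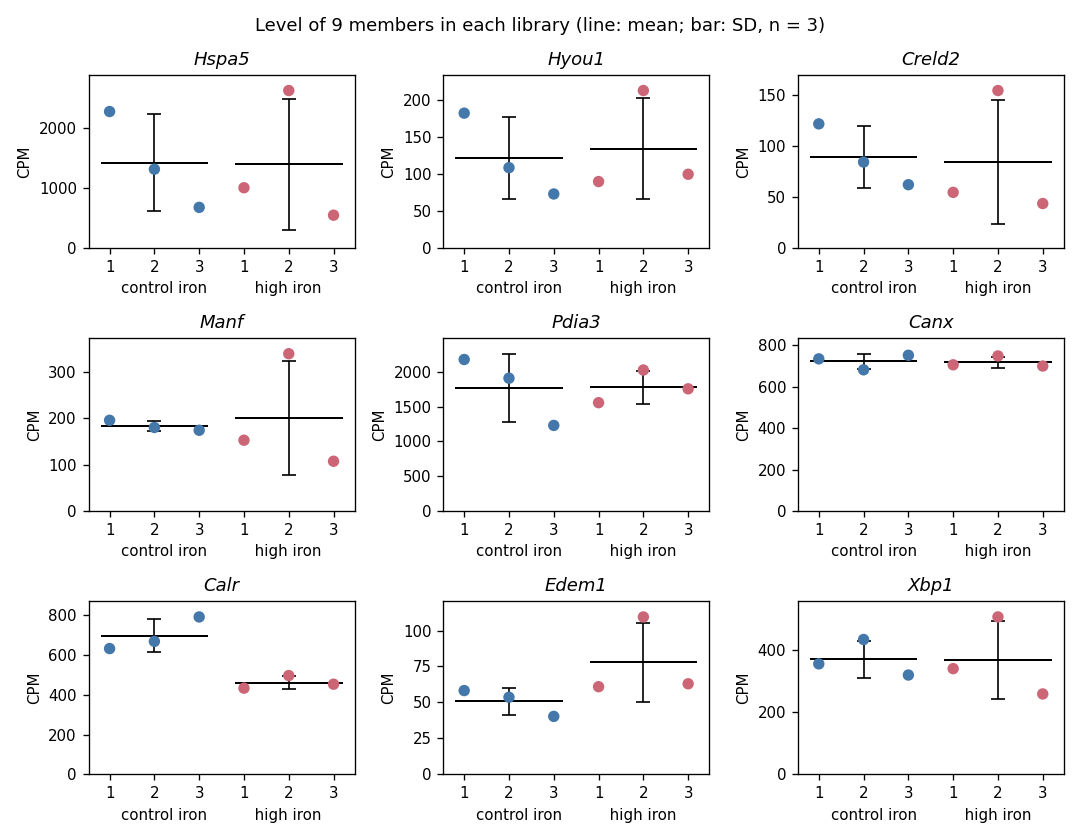
CPM (y axis, from 0) of 9 members in each of the 6 libraries (x axis, replicate number within diet). Blue points are control-iron and red points high-iron libraries, lines are group means and bars SD (n = 3). Hspa5, Hyou1 and Creld2 peak in control-iron replicate 1 and high-iron replicate 2, Canx is level across all 6 libraries, and the high-iron values of Calr all lie below its control-iron values.

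Calr had the smallest p of the members. It encodes calreticulin, which with calnexin holds newly made glycoproteins until they fold and which also buffers calcium in the ER. Its level was 633, 669 and 792 CPM in control-iron and 434, 497 and 454 CPM in high-iron replicates 1 to 3. Every high-iron library lay below every control-iron library, a separation in this direction that 8.44% of all genes tested show. Means were 698 ± 83.5 and 462 ± 32.4 CPM (SD, n = 3). The log2 fold change was -0.59 ± 0.14 (SE), with a 95% interval from -0.90 to -0.28. This missed the threshold by limma (adjusted p = 0.093) and by edgeR (adjusted p = 0.12), and passed it by DESeq2 (adjusted p = 0.0058). With 1 library left out the limma adjusted p ran from 0.063 to 0.39, and the log2 fold change from -0.66 to -0.50. On GRCm38 (mm10), Calr occupies bases 84841850 to 84846934 of chromosome 8, minus strand. Its 7 merged exons overlap no other gene model of GENCODE M21.

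The other genes of that cycle did not pass by any of the tools. Canx, calnexin, was at 735, 682 and 752 CPM on control iron and at 706, 749 and 700 CPM on high iron, one of the least variable genes in these libraries. Its log2 fold change was -0.01, with an interval from -0.29 to 0.28. Pdia3, the disulfide isomerase that works on glycoproteins held by calnexin and calreticulin, was at 2178, 1909 and 1231 CPM on control iron and at 1557, 2027 and 1757 CPM on high iron. The control-iron values of Pdia3 span the high-iron ones, and the log2 fold change was 0.04 with an interval from -0.46 to 0.54. Per length of transcript, Pdia3 was the most abundant member, at a mean of 515 RPKM (reads scaled by library size and transcript length) over the 6 libraries, followed by Hspa5 at 405, Calr at 198, P4hb at 168 and Hsp90b1 at 161 RPKM. Calr3, a calreticulin gene known from testis, was at 5.30, 11.7 and 7.06 CPM on control iron and at 69.7, 81.8 and 72.0 CPM on high iron. It rose by 3.12 ± 0.24 on the log2 scale (SE; limma adjusted p = 3.3e-04). A sequence search with the longest coding transcript of Calr, at 95% identity or more, returned no match to Calr3. Its cutoff drops short matches, so short shared stretches were not looked for.

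Among the disulfide and prolyl isomerases the 6 log2 fold changes ran from -0.26 to 0.41, with limma adjusted p-values of at least 0.55. P4hb, protein disulfide isomerase itself, was at 690, 511 and 306 CPM on control iron and at 549, 708 and 652 CPM on high iron. One control-iron library, replicate 3, lay well below the other 5 values, and the log2 fold change, 0.41 over all libraries, was 0.09 without it and 0.68 without control-iron replicate 1. Pdia4 and Pdia6, which share thioredoxin-type domains with P4hb, had means of 270 ± 98.8 and 287 ± 81.5 CPM, and of 520 ± 191 and 488 ± 154 CPM (SD, n = 3). Creld2, a secreted ER stress gene with isomerase activity, was at 121, 84.0 and 61.8 CPM on control iron and at 54.3, 154 and 43.4 CPM on high iron. Its high-iron group held the highest and the 2 lowest values. Its log2 fold change was -0.26 ± 0.42 (SE), and the interval reached from -1.19 to 0.67. Ppib, cyclophilin B, a prolyl isomerase, was at 83.4 ± 10.9 and 76.3 ± 4.08 CPM. Exons of Snx22 on the opposite strand overlap 25.0% of the merged exon length of Ppib, and Snx22 sequence covers 57.8% of its longest coding transcript. Snx22 itself was at 2.02 ± 0.339 and 2.36 ± 0.913 CPM. How reads in the shared bases were counted is not stated, so the level of Ppib is uncertain.

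Txndc5, an endothelial-enriched disulfide isomerase, is the neighbour of Bmp6. It occupies bases 38500079 to 38528824 of chromosome 13 (GRCm38, minus strand), and 224 bases of its exons (4.99%) overlap Bmp6 exons on the opposite strand. The library kit does not mark the strand. Txndc5 was at 245, 213 and 162 CPM on control iron and at 161, 223 and 168 CPM on high iron, with overlapping groups and a log2 fold change of -0.16 ± 0.19 (SE; limma adjusted p = 0.74). Bmp6, the ligand by which these cells signal iron to hepatocytes, was at 107, 165 and 110 CPM against 613, 875 and 810 CPM, and rose by 2.59 (limma adjusted p = 3.3e-04). The treatment of reads in the shared bases is not stated in the labels.

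The genes of the translocon, the channel complex of the ER membrane, did not pass either. Sec61a1, the pore subunit, was at 216 ± 42.3 and 238 ± 54.4 CPM (SD, n = 3), and Ssr1, a subunit of the associated TRAP complex, at 265 ± 34.8 and 254 ± 13.8 CPM. Sec61b, a small subunit beside the pore, was at 23.0, 33.9 and 51.1 CPM on control iron and at 28.0, 24.2 and 24.8 CPM on high iron. Control-iron replicate 1 was the lowest and replicate 3 the highest library for it, the reverse of Hspa5 within that group. Its log2 fold change was -0.40 (limma adjusted p = 0.55). Gene models with near-identical sequence cover up to 84.0% of the Sec61b transcript, so its reads are uncertain.

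ER-associated degradation draws misfolded proteins out of the ER and marks them with ubiquitin. Its genes had positive log2 fold changes in 5 of 6 tested cases, with a median of 0.17, and none passed. Of all 12980 genes tested, 6428 were positive. Edem1, a mannosidase-like factor that hands glycoproteins to degradation, was at 58.2, 53.6 and 40.3 CPM on control iron and at 60.9, 109 and 63.0 CPM on high iron. The groups did not overlap, a separation in this direction that 9.46% of all genes tested show, though the gap between the nearest libraries was narrow. Its log2 fold change was 0.57 ± 0.24 (SE; limma adjusted p = 0.38), and 0.30 without high-iron replicate 2. Herpud1, which assembles the degradation complex, was at 228, 314 and 180 CPM on control iron and at 317, 363 and 260 CPM on high iron. The top control-iron value lay among the high-iron ones, and the log2 fold change was 0.40 ± 0.21 (limma adjusted p = 0.47). Derl1, a channel protein of the pathway, was at 140, 149 and 142 CPM against 161, 167 and 158 CPM. These groups did not overlap, and the log2 fold change of 0.17 had an interval from -0.09 to 0.43 (limma adjusted p = 0.58). Derl2, its relative, was at 90.1 ± 7.07 and 100.2 ± 10.3 CPM (SD, n = 3). Syvn1, the ubiquitin ligase HRD1, and Sel1l, its partner, had log2 fold changes of 0.17 and -0.06. Derl3, known from secretory cells, is the member that was not tested. It had 2, 0 and 3 reads in the control-iron and 0, 11 and 2 reads in the high-iron libraries, where a count of 0 allows up to 3 reads (0.139 and 0.154 CPM in these 2 libraries).

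Per length, the sensor genes Ern1, Atf6 and Eif2ak3 were the least abundant tested members, with means of 2.16, 7.54 and 7.87 RPKM over the 6 libraries. Ern1 was at 17.1, 16.7 and 21.2 CPM on control iron and at 21.1, 23.3 and 23.2 CPM on high iron. The lowest high-iron library of Ern1 fell just under its highest control-iron library. Its log2 fold change was 0.29 ± 0.17 (SE; limma adjusted p = 0.51). Atf6 was at 72.4, 61.8 and 54.7 CPM against 75.4, 72.9 and 65.7 CPM, with a log2 fold change of 0.18 and an interval from -0.14 to 0.51. Eif2ak3 was at 51.7, 34.4 and 37.0 CPM against 46.5, 67.9 and 40.1 CPM, with high-iron replicate 2 the highest, and a log2 fold change of 0.31 (limma adjusted p = 0.60). Xbp1, the transcription factor whose mRNA IRE1 splices, was at 355, 433 and 319 CPM against 339, 505 and 258 CPM. Its extremes were both high-iron libraries, and its log2 fold change was -0.05 with an interval from -0.56 to 0.47. Counts per gene do not separate spliced from unspliced Xbp1, and they do not show sensor activity.

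Libraries on the same diet differed from each other in the level of these genes, and many members had the same order of libraries. Of the 31 tested members, 25 were highest in replicate 2 among the high-iron libraries, where 31.9% of all genes tested were. Among the control-iron libraries 22 were highest in replicate 1, against 36.1% of all genes, and 21 were lowest in replicate 3, against 37.9%. Both peaks held for 19 of the 31 members, and for 16.4% of all genes. Over all 6 libraries, high-iron replicate 2 was the highest for 19 members (17.3% of all genes) and the lowest for 0 (21.5% of all genes). These shares describe 6 libraries, and the members are not independent of each other. The summed level of the 32 genes was 12123, 10029 and 7888 CPM in control-iron and 8551, 12949 and 8452 CPM in high-iron replicates 1 to 3. Members that did not peak in high-iron replicate 2 were Atf6, Derl2, Dnajc10, Ppib, Sec61b and Ssr1.

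**Figure D3:**
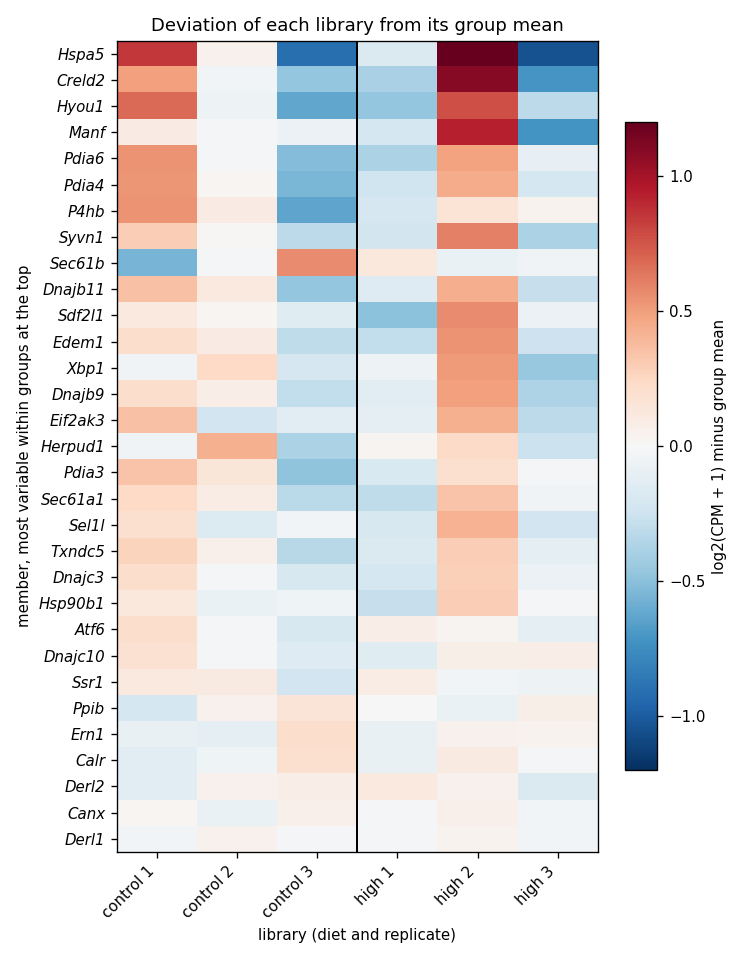
Deviation of each library (columns) from the mean of its diet group, in log2(CPM + 1), for the 31 tested members (rows, most variable at the top). Red is above and blue below the group mean. High-iron replicate 2 is red for 25 members as the highest of its group, and control-iron replicate 3 is blue for most, being the lowest of its group for 21.

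The size of this spread was uneven among the members. The standard deviation of log2(CPM + 1) within groups, pooled over both diets, had a median of 0.33 over the members and 0.23 over all genes tested. Hspa5 had the widest, 1.02, above 99.4% of all genes tested. Creld2 (0.76), Hyou1 (0.67), Manf (0.60) and Pdia6 (0.49) also lay above the 90th percentile of all genes, which was 0.47. By construction 10% of all genes lie above it, and 5 of the 31 members did. At the other end, Derl1 (0.04) and Canx (0.06) were among the steadiest genes in the table, at percentiles 0.26 and 1.46. Calr, at 0.14, was steadier than most genes too. For 2 of the 31, Hspa5 and Hyou1, the highest library was at least 2-fold above the lowest in both groups, a share close to the 7.07% of all genes tested.

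**Figure D4:**
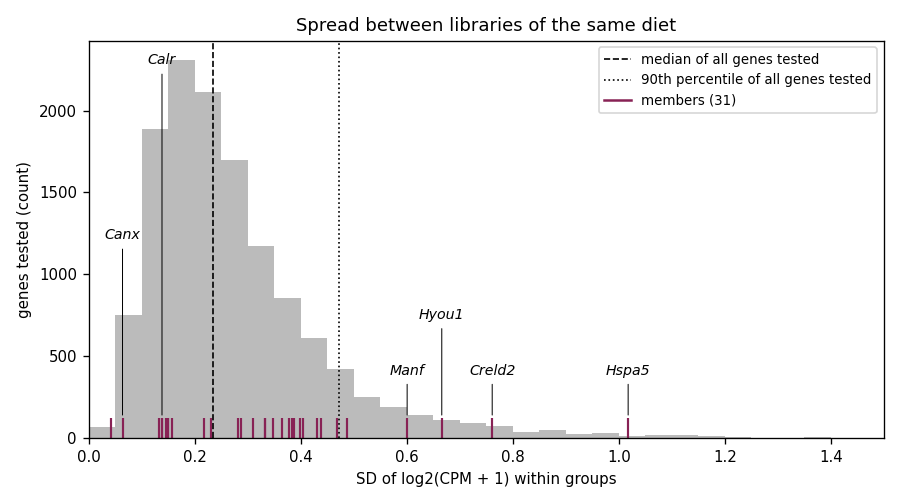
Histogram of the within-group SD of log2(CPM + 1) (x axis) over all genes tested (y axis, number of genes), with the 31 members as marks at the base. The x axis ends at 1.5, beyond which 1 gene lies. Hspa5, Creld2, Hyou1 and Manf stand in the right tail, and Canx at the left.

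Members with an ERSE were found at both ends of this spread. Of the 8 tested members with an exact match, Hspa5, Creld2 and Pdia6 were among the most variable, while Canx and Calr, whose sites are printed with theirs, were among the steadiest. The median within-group SD was 0.33 over these 8 and 0.34 over the 18 tested members whose promoters held no exact match. The range was wider with a match, from 0.06 to 1.02, than without one, from 0.13 to 0.47. Hyou1 and Manf, which varied widely, Derl1, the steadiest member, and Atf6 and Sec61a1 had no promoter entry and are in neither set.

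Lists of other genes of the same pathways are to be read against all genes tested, of which limma called 1.02%, edgeR 0.863% and DESeq2 3.27%, with 12.1% at an unadjusted p under 0.05. Among 38 tested folding enzymes outside the set, limma and edgeR called 0, DESeq2 1, and 6 had an unadjusted p under 0.05. The median log2 fold change was -0.001. The smallest p was that of Rcn3, a calcium-binding chaperone of the ER, at 400 ± 35.6 and 291 ± 8.05 CPM (SD, n = 3; adjusted p = 0.16 by limma and 0.026 by DESeq2). Fkbp11, a prolyl isomerase, was at 5.27 ± 0.654 and 2.92 ± 0.935 CPM (limma adjusted p = 0.30). Of 24 other degradation genes, limma, edgeR and DESeq2 each called 0, and 3 had an unadjusted p under 0.05. Their median was 0.09. Nploc4, a cofactor of the segregase VCP, and Ngly1, which strips glycans from extracted proteins, had log2 fold changes of 0.57 and 0.50 (limma adjusted p = 0.30 and 0.32). Of 28 genes of the translocon, signal peptidase and N-glycosylation, none was called by limma, edgeR or DESeq2, and 2 had an unadjusted p under 0.05. Their median was -0.09, and 19 of the 28 were negative, as were 6552 of the 12980 genes tested in all. Ssr2, of the TRAP complex with Ssr1, was at 196 ± 30.4 and 136 ± 12.4 CPM (limma adjusted p = 0.18), and Magt1, an oligosaccharyltransferase subunit, had a log2 fold change of -0.40 (limma adjusted p = 0.28).

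Of 26 other regulators of the unfolded protein response, among them genes of the PERK branch, limma and edgeR called 0, DESeq2 1, and 4 had an unadjusted p under 0.05. These counts too stand beside 12.1% of all genes at an unadjusted p under 0.05 and 3.27% called by DESeq2. The median log2 fold change was -0.02. Atf4, the factor whose translation PERK favours, was at 76.4, 86.5 and 121 CPM on control iron and at 72.2, 57.8 and 69.9 CPM on high iron (limma adjusted p = 0.34). Every high-iron value of Atf4 lay below the control-iron values, a separation in this direction that 8.44% of all genes tested show. Ddit3, which encodes the stress factor CHOP, was at 13.9 ± 2.70 and 14.4 ± 3.17 CPM (SD, n = 3). Ppp1r15a, the phosphatase subunit that ends the translation block, was at 140 ± 22.2 and 99.0 ± 10.5 CPM (limma adjusted p = 0.22). Its groups were separated in the same way as those of Atf4. Bcl2l11, which encodes the cell death factor BIM, was at 41.6 ± 10.2 and 22.3 ± 3.07 CPM, with the same kind of separation as Atf4. Its adjusted p was 0.10 by limma and 0.0071 by DESeq2.

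The chaperones of the cytosol and mitochondria, the heat shock proteins, differed from the ER members in their middle value. The log2 fold change was positive for 16 of the 17 tested, and for 6428 of the 12980 genes tested in all. The median was 0.45, against 0.04 for the ER members, and the difference between these sets was not tested. Limma and edgeR called 0 of them, DESeq2 1 (3.27% of all genes), and 7 of the 17 had an unadjusted p under 0.05 (12.1% of all genes). Hspa8, the constitutive cytosolic Hsp70, was at 13.8, 21.1 and 9.28 CPM on control iron and at 21.1, 48.8 and 27.1 CPM on high iron (adjusted p = 0.23 by limma and 0.040 by DESeq2). Dnajb1, its J-domain partner, was at 49.8 ± 9.77 and 69.0 ± 11.0 CPM (SD, n = 3, limma adjusted p = 0.35). Near-identical gene copies were searched for with the ER members only. The levels of Hspa8 and Dnajb1 were therefore not checked for reads shared with such copies.

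Other lists moved with these libraries in different ways. Averaged over its tested genes, the ER set lay 0.19, 0.03 and -0.22 log2 units from its group mean in control-iron replicates 1 to 3, and -0.15, 0.35 and -0.20 units in high-iron replicates 1 to 3. The related folding enzymes stayed within 0.05 units of their group means in every library. Cytosolic heat shock proteins shared the high-iron pattern (-0.37, 0.40 and -0.03 units) but by this mean were highest in replicate 2 on control iron (0.03, 0.18 and -0.21 units). Their summed level on control iron was instead highest in replicate 1, at 1686, 1554 and 1322 CPM, the order of the ER set. Hepatocyte markers were lowest in control-iron replicate 1 and highest in replicate 2 (-0.94, 0.91 and 0.03 units), and high in high-iron replicate 2 (-0.49, 0.44 and 0.05 units). Stellate cell markers followed the hepatocyte order (-1.07, 0.95 and 0.12, then -0.88, 0.85 and 0.04 units). So markers of these other liver cells were high with the ER set in high-iron replicate 2 and low where it peaked on control iron. Macrophage markers ran opposite to the ER set in high-iron replicates 1 and 2 (0.50 and -0.45 units). Immediate-early genes lay 0.25, -0.30 and 0.05 units from their mean on control iron and 0.26, -0.25 and -0.02 units on high iron. Plasma cell and B cell markers, whose cells are rich in ER, summed to 13.0 to 19.4 CPM in control-iron and 21.9 to 48.4 CPM in high-iron libraries, and were lowest within high iron in replicate 2. Erythroid and platelet markers summed to 1175 to 3809 CPM and 853 to 4755 CPM, with the top of each range in replicate 2. Summed over the list, dendritic cell and MHC class II markers ran from 327 to 356 CPM and from 461 to 836 CPM, and T and NK cell markers from 0.929 to 1.82 CPM and from 2.59 to 4.77 CPM. Between diets, limma called 1.02% of all genes tested. It called 3 of 15 tested macrophage markers and 3 of 5 dendritic cell and MHC class II markers, all higher on high iron. All 15 macrophage markers were positive (median log2 fold change 1.46). All 15 had an unadjusted limma p under 0.05 (12.1% of all genes), and DESeq2 called 11 (3.27% of all genes). The 5 dendritic cell and MHC class II markers were all positive too (median 2.10), 4 of them with an unadjusted limma p under 0.05. Of plasma and B cell markers limma called 1 of 7 (Ighm), and of stellate cell markers 1 of 12 (Hgf), both higher. Hepatocyte markers had 0 of 17 called, though all 17 were positive (median log2 fold change 0.58). Of 14 endothelial and 9 erythroid and platelet markers it called 0. The part of any of these other cells in the ER values was not tested.

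**Figure D5:**
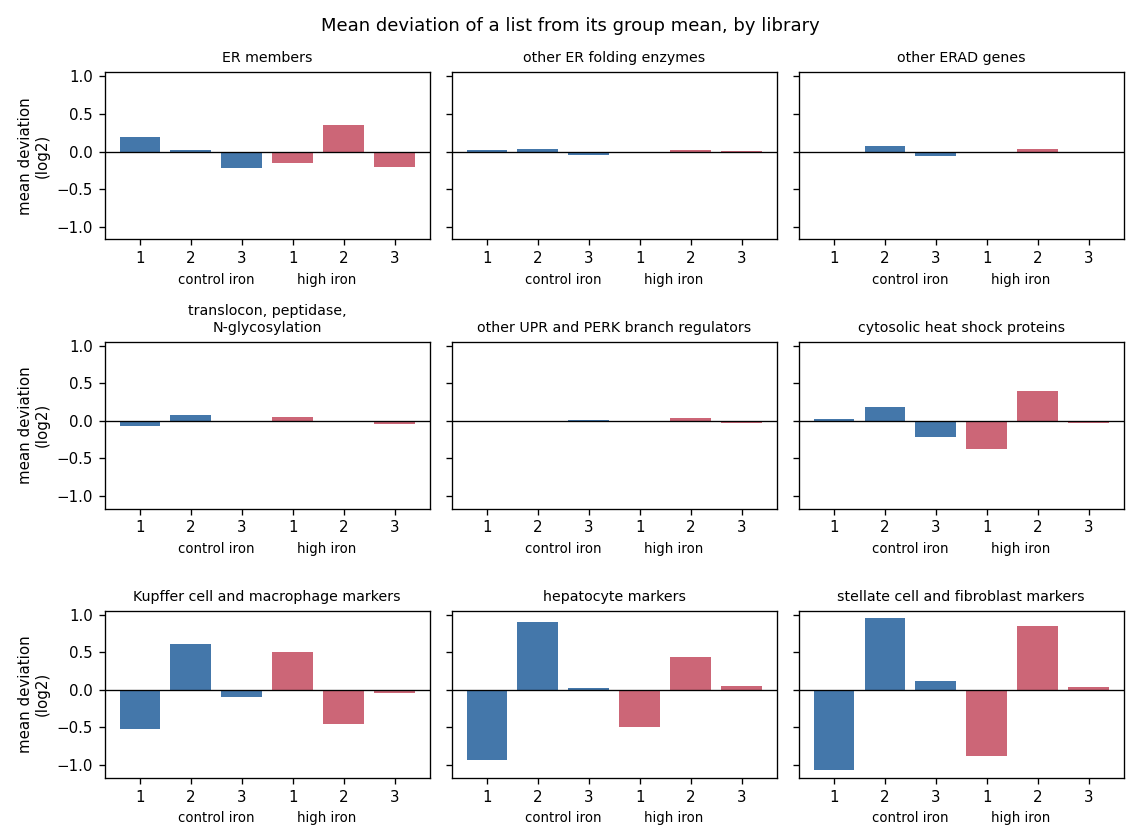
Mean deviation (y axis, log2 units) of each library from its diet group's mean, over the tested genes of 9 lists. Blue bars are control-iron and red bars high-iron replicates 1 to 3. The ER members swing between -0.22 and 0.35, the related folding enzymes stay within 0.05, and hepatocyte and stellate cell markers swing more widely in another order on control iron.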

How the data were processed

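RNA of 6 libraries (3 per diet) was isolated and sequenced from sorted liver endothelial cells. STAR, HTSeq, edgeR and the build mm10 are listed, without versions, in the submitters' processing notes. The annotation and the settings for counting were not given. The authors deposited a normalized signal headed CPM (reads scaled by an adjusted library size) and RPKM values, which are the CPM per kilobase of gene length. Every CPM value above 0 (114253, 100%) was a whole multiple of its library's step within 0.001 read, so reads were recovered.

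The main test was limma 3.58.1 (R 4.3.3) on log2(CPM + 1) with an intensity trend, two-sided, over genes with at least 1 CPM in at least 3 libraries, with Benjamini-Hochberg adjustment over all of them and a threshold of 0.05. EdgeR 4.0.16 and DESeq2 1.42.0 on recovered reads were alternatives, with pseudocounts of 0.1 and 0.5, other filters and scalings, a replicate block, and each library left out. The limma script was tested on simulated data. Within groups, the chi-square between 2 libraries divided by its degrees of freedom was 16.0 to 76.2, far above sampling noise, and each was counted as 1 replicate. Members and lists were chosen with earlier results of these data known; no p-value was adjusted over a list. Values per library were given for the 8 members with the smallest p, the sensors, Xbp1, Hspa5 and the 3 highest in RPKM. Hyou1, Manf, Creld2, Canx and Txndc5, and of other genes Atf4, Ddit3, Calr3, Snx22 and Pecam1, were added after their values were seen. Of 287 list entries, 285 were found, 10 under another symbol. Positions, exon overlaps and transcripts come from GENCODE M21 (GRCm38, which is mm10; 37607 identifiers matched), searched with BLAST+ 2.17.0 at 95% identity. Besides Sec61b and Ppib, single other gene models covered 20.0% of the longest coding transcript of Derl1 and 17.4% of that of Sec61a1. For Hsp90b1 and Eif2ak3 the shares were 15.0% and 10.8%. A floor of 3 reads is 0.139 to 0.231 CPM and covers counting error only.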

Additional observations from a re-analysis of the deposited data

How the results depend on the processing

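Over 15 alternatives the number of members called stayed at 0 except with DESeq2, which called 1, Calr. The median log2 fold change of the members ran from -0.10 to 0.20 with 1 library left out, within the spread between libraries. Of 31 members, 16 changed sign in at least 1 alternative, each time without passing the threshold, and 15 in none. Hspa5 ran from -0.77 without high-iron replicate 2 to 0.36 without high-iron replicate 3, and Creld2 from -0.81 to 0.09.

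Over all genes, 133 were called; 34 with no filter, 83 on RPKM, 424 with DESeq2, and from 27 (without high-iron replicate 3) to 183 (without control-iron replicate 1) with 1 library left out. Each of these exclusions but the last moved the count by over 1.5 times. With the replicate number as a block the count was 402, and 0 members were called. The labels do not say that equal numbers share a litter or day; deviations of same-numbered libraries correlated at 0.13, 0.32 and 0.06 across genes, and control-iron replicate 3 correlated best with another number. Derl3 was too low to test at this depth. With 3 libraries a group, intervals of the most variable members are wide.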

Other observations

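Outside the ER set, 7 other tested genes have an exact ERSE within the 300-base promoter window, of 37 genes with such a match in all (15 tested, 8 of them members). Their median within-group SD was 0.25, near the 0.23 of all genes tested and under the 0.33 of the 8 members with the motif.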
